A study of Mus musculus with 8 samples.

Results

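The DNA replication machinery was examined here as 46 genes in cortical progenitor cultures made from mouse embryonic stem cells, with and without forced expression of Bcl6, a transcriptional repressor. The genes were chosen by name and role, with earlier results of these data known. They were grouped as origin licensing (6 genes), the replicative helicase (13) and the DNA polymerases (9). The other groups were the sliding clamp and lagging strand (11), nucleotide supply (4) and drivers of the G1/S transition (3). All 46 were in the table of 14954 genes, from which they were read, so losses to a filter on low values cannot be seen here. RNA was sequenced from 4 Bcl6-induced and 4 control cultures. All 8 came from the A2 lox.Cre Bcl6 line, which carries a tetracycline-inducible Bcl6 transgene, and all were differentiated in the medium DDM. For part of that time, ended before day 12, cyclopamine, a blocker of hedgehog signalling, was added at 400 ng/ml. At day 12 the Bcl6-induced cultures had received 1 µg/ml doxycycline for 24 h and the controls DMSO. Both groups carry the transgene, and no culture with doxycycline but without the transgene was used here, so Bcl6 and doxycycline cannot be told apart. The stem cells were propagated on irradiated mouse embryonic fibroblasts before differentiation. The labels number the differentiations 1 to 4 in each group and do not say whether these were separate in all steps. Each p-value here is thus set against library-to-library spread, which may be partly technical.

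Before a cell copies its genome, the origin recognition complex, Cdc6 and Cdt1 load a ring of Mcm proteins onto each origin. The ring becomes an active helicase when Cdc45 and the GINS complex join it. DNA polymerase alpha with its primase then lays down primers, polymerases epsilon and delta extend them with the Pcna clamp, and flap removal and ligation seal the lagging strand. Many of these genes are transcribed under E2F factors as cells enter S phase. Neural progenitors pass through this cycle repeatedly, and neurons leave it for good.

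The targeted gene was read first. Bcl6 itself stood at 393, 422, 427 and 325 CPM (reads scaled to a library total of 1 M) in Bcl6-induced libraries 1 to 4, against 6.61, 6.01, 7.12 and 6.21 CPM in controls 1 to 4, a log2 fold change of 5.90 ± 0.10 (SE, n = 4 each; limma, Benjamini-Hochberg adjusted p = 6.8e-11). Reads of the transgene and of the cells' own Bcl6 are counted together in it. The reads recovered behind the values numbered 10.33 M to 15.02 M in the Bcl6-induced libraries and 9.42 M to 9.74 M in the controls, so every control was shallower. Control 1 stood apart from the other controls for these genes. It was the highest of the 8 libraries for 33 of the 46 replication genes, and for 28.1% of all genes. After each library's trend on transcript length and GC content was taken off, it was the highest for 25 replication genes and for 24% of all genes. Log2 fold changes without control 1 are therefore given for each role group below. In RNA from whole cultures, fewer cells of a type and less RNA per cell cannot be told apart.

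Among the 46 replication genes, 2 fell and none rose. Rfc4, a subunit of the loader that puts the Pcna clamp onto DNA, and Rrm1, the large subunit of ribonucleotide reductase, were the genes that passed the test (limma on log2 values, Benjamini-Hochberg adjusted p under 0.05 over all genes). Of all genes, 2.26% were called lower and 4.55% higher, 6.81% in all, so 2 genes lower of 46, or 4.35%, is near the background. The remaining 44 genes did not pass. Without control 1, 4 replication genes were called lower, Mcm4, Mcm6, Rfc4 and Rrm1, while 3.68% of all genes were. None was called lower without control 2 or without any one of Bcl6-induced libraries 1, 2 and 3. In those settings only 0.62% to 1.32% of all genes were called lower, so calls were fewer over the whole table. Without control 4, 1 replication gene was called lower, where 1.598% of all genes were. Without Bcl6-induced library 4, 1 was, where 2.05% of all genes were. Without control 3, 4 were, where 1.85% of all genes were. After the correction for length and GC, 9 were called lower, where 6.06% of all genes were. They were E2f1, Mcm4, Mcm6, Mcm10, Pold1, Pold2, Prim1, Rfc4 and Rrm1. Over all settings tried, 13 of the 46 were called lower in at least 1, where 8.14% of all genes were.

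The sizes were small and lay mostly on the side of lower levels. The log2 fold change, Bcl6-induced minus control, was below 0 for 40 of the 46 replication genes, and for 44.6% of all genes. Its median over the 46 genes was -0.13, with a range of -0.42 to 0.17, against a median of 0.03 over all genes. Without control 1, 36 of the 46 were below 0 and their median was -0.10. Under each of the 3 other scalings tried, 43 were below 0, with Orc2, Mcm2 and Mcm8 changing sign. The 4 Bcl6-induced libraries lay below all 4 controls for 12 replication genes, namely Orc6, Mcm4, Mcm6, Mcm10, Cdc45, Gins3, Prim1, Pold2, Pold3, Rfc4, Rpa2 and Rrm1, and above all 4 controls for none. Over all genes, 6.32% lay apart and lower and 10.8% apart and higher. With control 1 left out, 13 replication genes lay apart and lower, where 9.13% of all genes did. The unadjusted p was under 0.05 for 15 replication genes that were lower and for none that were higher, where 8.89% and 14.8% of all genes were.

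**Figure D1:**
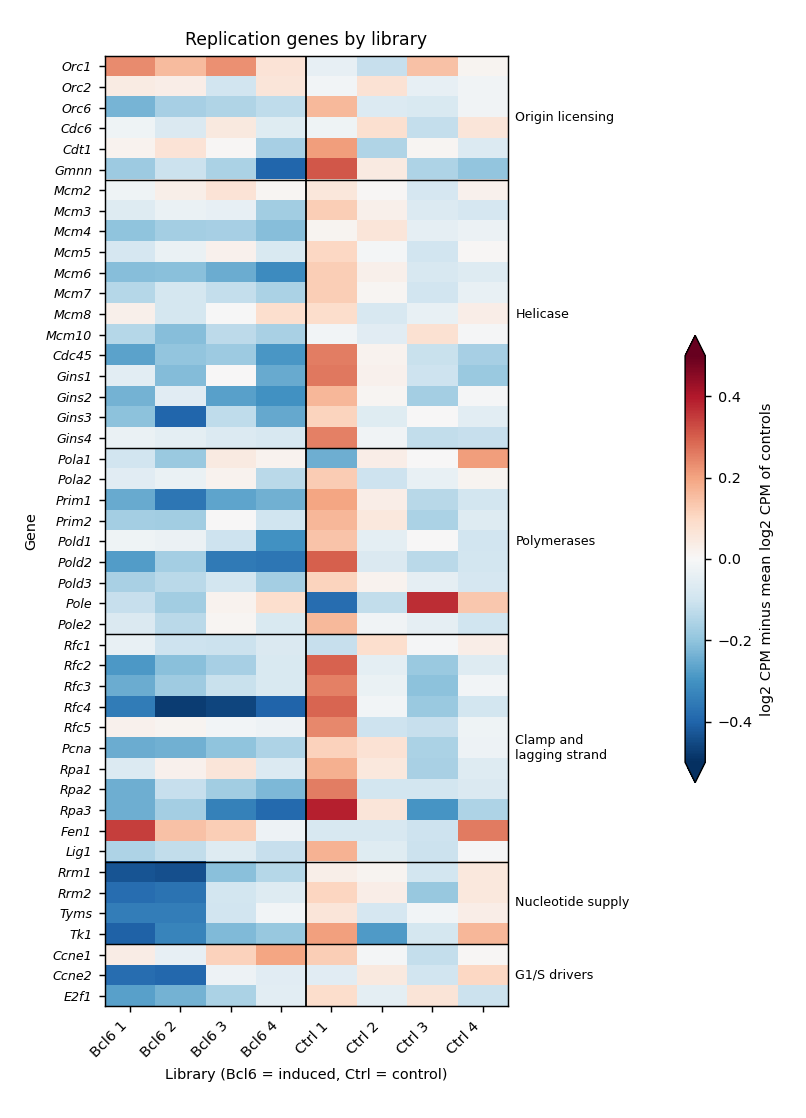
Heat map of the 46 replication genes (rows, by role) in the 8 libraries (columns, Bcl6-induced left and control right); colour is the log2 CPM minus the mean log2 CPM of the 4 controls. Blue fills most of the Bcl6-induced columns, the nucleotide supply genes are darkest in Bcl6-induced libraries 1 and 2, and control 1 is the highest library for 33 genes.

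The 95% intervals give a range of sizes for each gene, unadjusted for the number of genes and under the deposited scaling only. Under the other scalings tried, the median of the 46 genes lay lower, at -0.19 to -0.17, and the intervals are not counted here. For 22 of the 46 replication genes the 95% interval of the log2 fold change lay within a 1.25-fold difference either way, which held for 27.0% of all genes. For 45 of them it lay within a 1.5-fold difference, which held for 63.9% of all genes, and the exception was Rfc4. At the median standard error of the 46 genes, a log2 fold change of 0.31 would have been needed to pass the test, and 0.22 to 0.65 over the range of their standard errors. Most of the differences seen were smaller than that.

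**Figure D2:**
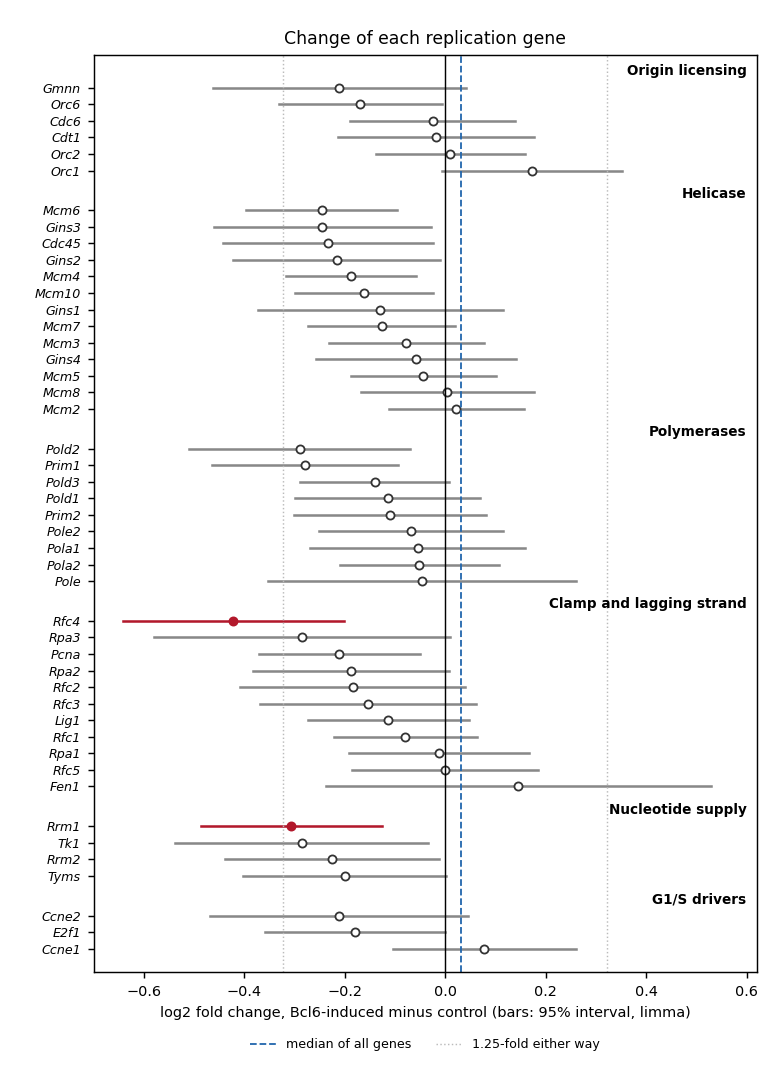
Log2 fold change of each replication gene, Bcl6-induced minus control (horizontal axis), with its 95% interval from limma over n = 4 libraries each; filled red points passed the adjusted p of 0.05, the dashed line is the median of all genes (0.03) and the dotted lines mark 1.25-fold. Rfc4 and Rrm1 are filled, and 40 of the 46 points lie left of 0.

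Promoter windows from RefSeq (build GRCm38.p6), covering 250 bases before to 50 after each transcript start, were at hand for 37 of the 46 genes, in 43 windows. They were searched on both strands for 4 forms of the E2F site, the element through which E2F factors bind S phase genes. The longer forms were TTTCCCGC, TTTGGCGC, TTTCGCGC and TTTGCCGC, and the shorter ones were the same without their first T, so each longer match also holds a shorter one. A longer form was in 15 of the 43 windows (34.9%) and in 2.26% of all 32851 windows, and a shorter form in 25 (58.1%) and in 9.57%. The CCAAT box, spelled CCAAT, was in 25 windows (58.1%) and in 37.4% of all. The BCL6 form TTCCTNGAA was in 1 window (2.33%), that of Lig1, and in 1.59% of all. A match is a description of the letters and no evidence of binding. The 15 genes with a longer E2F form had a median log2 fold change of -0.08, with 13 below 0. The 22 without one had a median of -0.18, with 18 below 0. A shorter form was held by 23 of the 37 genes, so the 22 are not a set without E2F forms. Among them Prim1, Rfc1, Rfc4, Rpa2, Rpa3, Fen1, Rrm1 and Rrm2 held a shorter form, and both genes that fell are in that list. The 150 bases before the start are printed for the 2 genes that fell, for the leading genes of the helicase and the polymerases, and for Orc1, which had the highest log2 fold change of the 46 and was picked after its values were seen. Capitals mark matches to the shorter E2F forms on either strand, and overlapping matches are joined.
Rfc4 (chr16:23127731-23127880, minus strand): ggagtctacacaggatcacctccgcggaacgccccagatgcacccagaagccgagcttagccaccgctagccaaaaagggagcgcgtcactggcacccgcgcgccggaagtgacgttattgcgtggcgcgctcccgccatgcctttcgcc
Rrm1 (chr7:102441545-102441694, plus strand): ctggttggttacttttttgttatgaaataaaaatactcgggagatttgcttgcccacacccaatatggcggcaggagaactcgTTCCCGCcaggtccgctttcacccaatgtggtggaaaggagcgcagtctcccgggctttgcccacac
Mcm6 (chr1:128359706-128359855, minus strand): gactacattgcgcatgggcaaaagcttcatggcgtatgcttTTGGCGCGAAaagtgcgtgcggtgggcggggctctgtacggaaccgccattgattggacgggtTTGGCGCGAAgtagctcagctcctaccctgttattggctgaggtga
Prim1 (chr10:128015065-128015214, plus strand): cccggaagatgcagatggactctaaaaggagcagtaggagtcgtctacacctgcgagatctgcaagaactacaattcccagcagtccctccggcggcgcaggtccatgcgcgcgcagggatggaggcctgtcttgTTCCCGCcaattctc
Orc1 (chr4:108579304-108579453, plus strand): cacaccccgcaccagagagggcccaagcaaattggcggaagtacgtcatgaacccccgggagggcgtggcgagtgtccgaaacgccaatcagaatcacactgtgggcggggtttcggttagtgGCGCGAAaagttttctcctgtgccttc
The stretch of Mcm6 holds 4 overlapping matches, in 2 copies of the same 10 letters, and those of Rrm1, Prim1 and Orc1 hold 1 match each. That of Rfc4 holds none, and the match in its whole window lies after the printed stretch.

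Origin licensing genes had the median log2 fold change nearest to 0 of the 6 groups, -0.02, with none of 6 called. That place held in all 19 other settings, but the median itself was -0.10 after the length and GC correction and -0.01 without control 1. Orc6 (ENSMUSG00000031697), a subunit of the origin recognition complex, had the smallest p of the group. It stood at 74.2, 77.6, 78.4 and 79.8 CPM in Bcl6-induced libraries 1 to 4, against 97.4, 83.1, 82.8 and 86.00 CPM in controls 1 to 4. The groups did not overlap, with control 1 well above the rest, and the log2 fold change was -0.17 ± 0.07 (SE, n = 4 each; limma, adjusted p = 0.195). Gmnn (ENSMUSG00000006715), or geminin, which binds Cdt1 and keeps origins from being licensed again in the same cycle, had the highest level per length of the group and, with all libraries, the largest difference. It stood at 77.5, 81.4, 78.6 and 66.7 CPM in Bcl6-induced libraries 1 to 4, against 109, 90.5, 78.9 and 76.5 CPM in controls 1 to 4. The groups overlapped, since controls 3 and 4 lay among the Bcl6-induced libraries, and the log2 fold change was -0.21 ± 0.11 (SE, n = 4 each; limma, adjusted p = 0.287). Without control 1 the log2 fold change of Gmnn was -0.11, smaller than those of Orc6 at -0.12 and Orc1 at 0.16.

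Orc1 (ENSMUSG00000028587), the largest subunit of the origin recognition complex, stood the other way. It was at 53.7, 50.8, 53.3 and 47.7 CPM in Bcl6-induced libraries 1 to 4, against 44.2, 41.98, 50.3 and 46.004 CPM in controls 1 to 4. Only control 3 reached into the range of the Bcl6-induced libraries, and the log2 fold change was 0.17 ± 0.08 (SE, n = 4 each; limma, adjusted p = 0.226), which did not pass the test. The other 3 licensing genes were near 0. Orc2, also an origin recognition subunit, had a log2 fold change of 0.01, and the loading factors Cdc6 and Cdt1 had -0.03 and -0.02. The 95% interval of Cdt1, which carries the Mcm ring to origins, ran from -0.21 to 0.18. Without control 1 the log2 fold change was 0.05 for Cdt1, -0.03 for Cdc6 and 0.0063 for Orc2. Orc2 shares 29.8% of its exon bases with Nif3l1 on the other strand, and Orc1 10.8% with Gm12743. Whether reads were counted by strand is not given in the sources used here, so their values are uncertain to that extent.

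The helicase group of 13 genes had a median log2 fold change of -0.13, with 11 below 0, 5 apart and lower, and none called. Over all genes, 44.6% lay below 0, 6.32% were apart and lower, and 2.26% were called lower. The median of the helicase group without control 1 was -0.08. Mcm6 (ENSMUSG00000026355; chr1:128331590-128359664, minus strand), a subunit of the Mcm2 to Mcm7 ring, came closest to the threshold and had, with all libraries, the largest difference of the group. It stood at 433, 434, 422 and 403 CPM in Bcl6-induced libraries 1 to 4, against 546, 510.3, 474 and 479.6 CPM in controls 1 to 4. Every Bcl6-induced library lay below every control. The means were 423 ± 14.3 CPM in the Bcl6-induced libraries and 502 ± 32.9 CPM in the controls (SD, n = 4 each), a log2 fold change of -0.25 ± 0.07 (SE; limma, adjusted p = 0.0556). Mcm6 passed the test in 7 of the 11 other settings with all 8 libraries and in 2 of 8 leave-outs of 1 library. Without control 1 its log2 fold change was -0.21 (limma, adjusted p = 0.0337), next to -0.21 for Gins3.

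Within the ring, whose subunits act as one complex, the log2 fold changes ran from -0.25 for Mcm6 to 0.02 for Mcm2. Mcm7 (ENSMUSG00000029730), with the highest level per length of all 46 genes, stood at 413, 429, 421 and 409 CPM in Bcl6-induced libraries 1 to 4, against 497, 459, 427 and 445 CPM in controls 1 to 4. Only control 3 fell inside the range of the Bcl6-induced libraries, and the log2 fold change was -0.13 ± 0.07 (SE, n = 4 each; limma, adjusted p = 0.273). Mcm7 also hosts the microRNAs Mir25 and Mir93 on its own strand. Mcm2, a subunit shown as a contrast after its values were seen, stood at 322, 333, 343 and 329 CPM in Bcl6-induced libraries 1 to 4, against 339.9, 328, 308 and 332 CPM in controls 1 to 4. Its groups overlapped throughout, and its 95% interval ran from -0.11 to 0.16. Mcm4, another subunit, lay apart and lower with a log2 fold change of -0.19 (limma, adjusted p = 0.0826). Mcm3 and Mcm5, the other two, had -0.08 and -0.04. The median over Mcm2 to Mcm7 was -0.10. Leaving out control 1, the values were -0.08 for Mcm7, 0.04 for Mcm2, -0.18 for Mcm4, -0.04 for Mcm3 and -0.0088 for Mcm5.

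None of the factors that activate the ring passed the test, and with all libraries all 6 had log2 fold changes below 0. Cdc45, which joins the ring at firing, had a log2 fold change of -0.23 ± 0.10 (SE, n = 4 each), and the groups did not overlap. Without control 1 it was -0.15. Among the 4 GINS subunits the values were -0.13 for Gins1, -0.22 for Gins2, -0.24 for Gins3 and -0.06 for Gins4, with a median of -0.17. Mcm10, an initiation factor needed to activate the loaded helicase, had -0.16 and lay apart and lower. Mcm8, which is a relative of the ring subunits with a role in recombination repair, had 0.00 and overlapping groups. Leaving out control 1, the values were -0.04 for Gins1, -0.16 for Gins2, 0.03 for Gins4, -0.17 for Mcm10 and 0.03 for Mcm8, so that Gins4 lay above 0. The value of Gins2 is uncertain, since it shares 67.3% of its exon bases with Gse1 on the other strand.

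**Figure D3:**
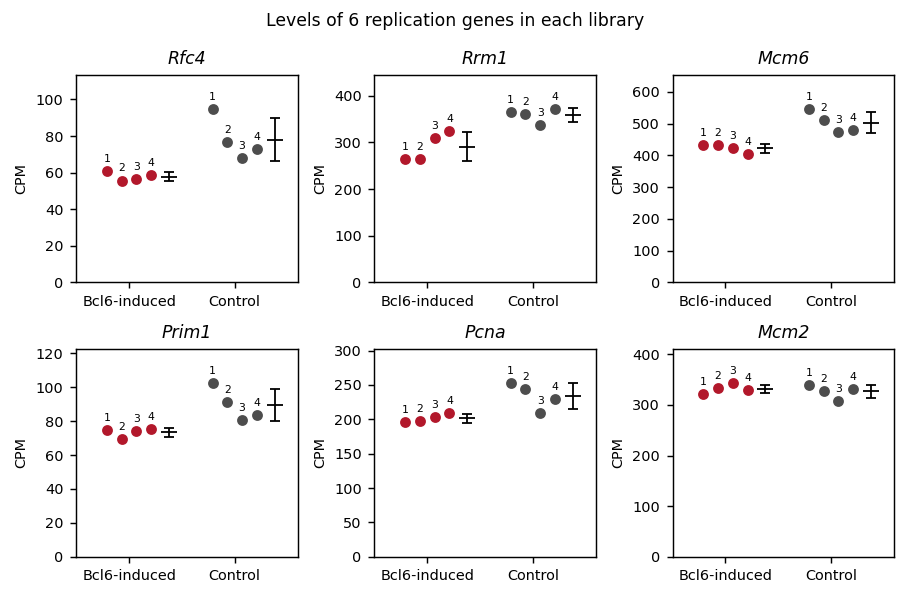
CPM of 6 replication genes in each library (points, numbered by differentiation; Bcl6-induced red and left, control grey and right), with bars for the mean and SD of n = 4. The Bcl6-induced libraries lie below all controls for Rfc4, Rrm1, Mcm6 and Prim1, Pcna overlaps at control 3, and Mcm2 overlaps throughout.

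Every one of the 9 polymerase genes had a log2 fold change below 0, with a median of -0.11, 3 of them apart and lower, and none called. The shares over all genes were 44.6% below 0, 6.32% apart and lower, and 2.26% called lower. Without control 1 all 9 polymerase genes were still below 0 and their median was -0.10. Prim1 (ENSMUSG00000025395), the catalytic subunit of primase, which makes the RNA primers, had the smallest p of the group. It stood at 74.8, 69.3, 74.3 and 75.4 CPM in Bcl6-induced libraries 1 to 4, against 102, 91.2, 80.9 and 83.5 CPM in controls 1 to 4. The groups did not overlap, and the log2 fold change was -0.28 ± 0.08 (SE, n = 4 each; limma, adjusted p = 0.0732). It passed the test in 5 of the 11 other settings with all libraries and in none of the 8 leave-outs, and its value without control 1 was -0.21. Pold2 (ENSMUSG00000020471), the accessory subunit of polymerase delta, had the highest level per length of the group and, with all libraries, the largest difference. It stood at 96.8, 104, 91.8 and 91.4 CPM in Bcl6-induced libraries 1 to 4, against 144, 112, 107 and 110.1 CPM in controls 1 to 4. The groups lay apart, control 1 stood far above the other controls, and the log2 fold change was -0.29 ± 0.10 (SE, n = 4 each; limma, adjusted p = 0.108). Without control 1 that value was -0.19 (limma, adjusted p = 0.0706). Pold2 passed the test in 2 of the 11 other settings with all libraries, both with the length and GC correction, and in none of the 8 leave-outs. With that correction alone its log2 fold change was -0.34 (limma, adjusted p = 0.00537), the smallest p of the 46 genes there.

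The other polymerase subunits had smaller differences. Prim2, the other primase subunit, had a log2 fold change of -0.11, and Pola1 and Pola2, the catalytic and accessory subunits of polymerase alpha, had -0.06 and -0.05. For polymerase delta, the catalytic subunit Pold1 had -0.11 and the accessory subunit Pold3 had -0.14, with Pold3 apart and lower. For polymerase epsilon, which copies the leading strand, the catalytic subunit Pole had -0.05 and Pole2 had -0.07. Among the polymerase genes Pole had the widest spread over the controls, with 107, 103, 117 and 122 CPM in Bcl6-induced libraries 1 to 4, against 88.7, 106, 149 and 127 CPM in controls 1 to 4. Control 1 was the lowest of the 8 libraries for Pole and control 3 the highest, while control 1 was the highest library for 33 of the 46 genes. Leaving out control 1, the log2 fold changes were -0.05 for Prim2, -0.14 for Pola1 and -0.009 for Pola2. They were -0.07 for Pold1, -0.10 for Pold3, -0.17 for Pole and -0.01 for Pole2.

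In the clamp and lagging strand group of 11 genes, Rfc4 fell, no gene rose, and the median log2 fold change was -0.15. Without control 1 that median was -0.09. Rfc4 (ENSMUSG00000022881; chr16:23113943-23127737, minus strand) stood at 60.8, 55.7, 56.4 and 58.6 CPM in Bcl6-induced libraries 1 to 4, against 94.7, 76.8, 68.2 and 72.7 CPM in controls 1 to 4. Every Bcl6-induced library lay below every control, and the Bcl6-induced libraries lay closer together than the controls. Rfc4 averaged 57.9 ± 2.31 CPM in the Bcl6-induced libraries and 78.1 ± 11.6 CPM in the controls (SD, n = 4 each), a log2 fold change of -0.42 ± 0.10 (SE; limma, adjusted p = 0.0316), the largest of the 46 genes. It passed the test in 10 of the 11 other settings with all libraries and without any one of controls 1, 3 and 4. It did not pass without control 2 or without any one of the Bcl6-induced libraries, where its adjusted p reached 0.102, without Bcl6-induced library 2. Without control 1 its log2 fold change was -0.33 (limma, adjusted p = 0.0122). Rfc4 shares 12.7% of its exon bases with Eif4a2 on the other strand.

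The other clamp loader subunits, which work in one complex with Rfc4, lay nearer to 0. The log2 fold changes were -0.08 for Rfc1, -0.18 for Rfc2 and -0.15 for Rfc3, and Rfc5 stood at 117 ± 1.72 CPM in the Bcl6-induced libraries and 118 ± 14.2 CPM in the controls (SD, n = 4 each). Rfc2 shares 15.1% of its exon bases with Lat2 and Rfc5 10.7% with Wsb2, both on the other strand. Leaving out control 1, the log2 fold changes were -0.12 for Rfc1, -0.09 for Rfc2, -0.07 for Rfc3 and 0.08 for Rfc5. Pcna (ENSMUSG00000027342), the ring that tethers polymerases to DNA, had the highest level per length of the group. It stood at 196, 197, 203 and 209.5 CPM in Bcl6-induced libraries 1 to 4, against 252, 245, 209 and 229 CPM in controls 1 to 4. Only control 3 reached the range of the Bcl6-induced libraries, and the log2 fold change was -0.21 ± 0.07 (SE, n = 4 each; limma, adjusted p = 0.11), or -0.17 without control 1. The genome holds processed copies of Pcna, Pcna-ps1 and Pcna-ps2, so some of its reads may have been lost or shared.

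Of the RPA subunits, which coat single-stranded DNA, Rpa1 had a log2 fold change of -0.01, Rpa2 -0.19 and Rpa3 -0.29, and none passed. Lig1, the ligase that joins lagging strand fragments, had -0.11. With control 1 left out, the values were 0.05 for Rpa1, -0.10 for Rpa2, -0.16 for Rpa3 and -0.05 for Lig1. Fen1, the nuclease that trims flaps before ligation, had the fewest reads of the 46, 25 to 53 per library where every other replication gene had at least 156. Its level was 3.12 ± 0.33 CPM in the Bcl6-induced libraries and 2.82 ± 0.36 CPM in the controls (SD, n = 4 each). Fen1 shares 78.8% of its exon bases with Gm10143 on the other strand, so its value is uncertain.

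Nucleotide supply had the lowest median log2 fold change of the 6 groups, -0.26, here and in all 19 other settings, with Rrm1 called and all 4 genes below 0. Of all genes, 2.26% were called lower and 44.6% lay below 0. Rrm1 (ENSMUSG00000030978; chr7:102441695-102469771, plus strand) stood at 265, 264, 309.9 and 324 CPM in Bcl6-induced libraries 1 to 4, against 365, 361, 336 and 371 CPM in controls 1 to 4. All Bcl6-induced libraries lay below all controls, and libraries 1 and 2 were lower than libraries 3 and 4. Rrm1 averaged 291 ± 30.7 CPM in the Bcl6-induced libraries and 359 ± 15.3 CPM in the controls (SD, n = 4 each), a log2 fold change of -0.31 ± 0.08 (SE; limma, adjusted p = 0.0494). It passed the test in 9 of the 11 other settings with all libraries and without control 1, control 3 or Bcl6-induced library 4. It did not pass without control 2, control 4 or Bcl6-induced library 1, 2 or 3, and its adjusted p reached 0.173, without Bcl6-induced library 1. Without control 1 its log2 fold change was -0.30 (limma, adjusted p = 0.0383).

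Rrm2 (ENSMUSG00000020649), the small subunit of ribonucleotide reductase, which limits the enzyme to S phase, showed the same division of the Bcl6-induced libraries. It stood at 188, 189.5, 229.8 and 234 CPM in Bcl6-induced libraries 1 to 4, against 264, 250.4, 215 and 254 CPM in controls 1 to 4. Libraries 1 and 2 lay below all controls, while libraries 3 and 4 overlapped with them. The log2 fold change was -0.23 ± 0.10 (SE, n = 4 each; limma, adjusted p = 0.188). Tk1, the S phase thymidine kinase, had -0.29, and Tyms, which makes thymidylate, had -0.20, neither past the threshold. With control 1 left out, the values were -0.19 for Rrm2, -0.22 for Tk1 and -0.18 for Tyms, and the group median was -0.20. A processed copy, Tyms-ps, makes the count of Tyms uncertain.

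None of the 3 G1/S drivers passed the test, although E2f1 did after the length and GC correction (limma, adjusted p = 0.0346). E2f1 (ENSMUSG00000027490), the activator of S phase transcription, stood at 42.4, 43.5, 45.8 and 49.4 CPM in Bcl6-induced libraries 1 to 4, against 54.5, 49.5, 53.5 and 47.6 CPM in controls 1 to 4. Bcl6-induced library 4 overlapped with the controls, and the log2 fold change was -0.18 ± 0.08 (SE, n = 4 each; limma, adjusted p = 0.211). The cyclins E partner with Cdk2 to start S phase, and their 2 genes lay on opposite sides of 0. Ccne1 (ENSMUSG00000002068) stood at 51.1, 48.4, 53.96 and 57.1 CPM in Bcl6-induced libraries 1 to 4, against 54.3, 49.4, 45.8 and 50.1 CPM in controls 1 to 4, with overlapping groups and a log2 fold change of 0.08 ± 0.08 (SE, n = 4 each; limma, adjusted p = 0.611). Ccne2 (ENSMUSG00000028212) stood at 14.3, 14.2, 18.3 and 17.9 CPM in Bcl6-induced libraries 1 to 4, against 17.9, 19.3, 17.5 and 20.05 CPM in controls 1 to 4. Its Bcl6-induced libraries 1 and 2 lay below all controls and libraries 3 and 4 among them, for a log2 fold change of -0.21 ± 0.12 (SE, n = 4 each; limma, adjusted p = 0.293). With control 1 left out, the values were -0.15 for E2f1, 0.12 for Ccne1 and -0.23 for Ccne2, and the median of the 3 was -0.15. Ccne2 shares 17.4% of its exon bases with Ints8 on the other strand.

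The Bcl6-induced libraries differed among themselves by role. The mean log2 level of the nucleotide supply genes, relative to the control mean, was -0.39, -0.37, -0.15 and -0.10 in Bcl6-induced libraries 1 to 4, and 0.10, -0.08, -0.10 and 0.08 in the 4 controls in the same order. That of the G1/S drivers was -0.20, -0.22, -0.02 and 0.03 in the Bcl6-induced libraries, against 0.05, -0.0025, -0.05 and 0.0018 in the controls. For both sets of genes, Bcl6-induced libraries 1 and 2 were the lowest of the 8. The division was not particular to these roles. In Bcl6-induced libraries 1 to 4, further genes of G1/S control had -0.15, -0.20, -0.06 and -0.08. Genes of G2 and mitosis had -0.17, -0.18, -0.08 and -0.09, and genes that copy chromatin with the DNA -0.13, -0.13, -0.06 and -0.06. Further replication factors had -0.09, -0.09, -0.05 and -0.05. Further nucleotide metabolism genes lacked it, with -0.03, -0.01, -0.03 and -0.11. The helicase genes showed no such division, with -0.13, -0.13, -0.10 and -0.17 in the Bcl6-induced libraries, against 0.13, -0.0029, -0.07 and -0.05 in the controls. Over all 46 genes the means were -0.15, -0.15, -0.09 and -0.13 in the Bcl6-induced libraries, against 0.12, -0.02, -0.08 and -0.02 in the controls. The highest Bcl6-induced library and the lowest control, control 3, were thus nearly level.

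**Figure D4:**
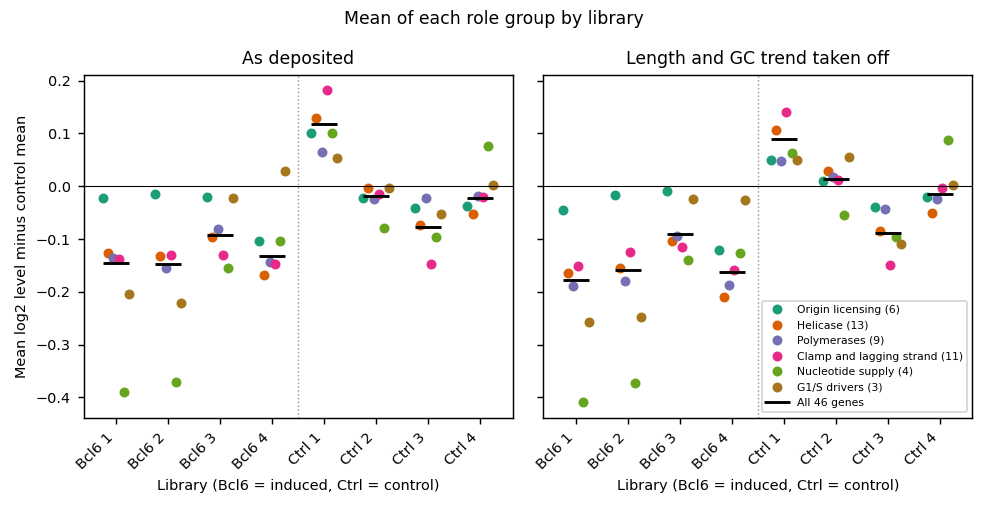
Mean log2 level of each role group relative to the control mean (vertical axis) in the 8 libraries, as deposited (left) and after each library was corrected for length and GC (right); the number of genes is in the legend and black bars are the mean of all 46. Nucleotide supply reaches -0.39 and -0.37 in Bcl6-induced libraries 1 and 2, and control 1 stands above the other controls in the left panel.

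Markers of cell type were read beside these values. All 10 neural progenitor and all 10 pluripotency markers listed were in the table. Of 10 neural progenitor markers 6 fell and none rose, and their summed level was 1133 to 1502 CPM in the Bcl6-induced libraries and 1646 to 2012 CPM in the controls. It was 1133, 1144, 1502 and 1491 CPM in Bcl6-induced libraries 1 to 4, so libraries 1 and 2 were again the lowest. Of 10 neuron markers 6 rose and none fell, with a summed level of 1300.1 to 1555 CPM in the Bcl6-induced libraries and 801 to 952 CPM in the controls. Of 10 pluripotency markers 4 rose and 1 fell, at 2049 to 2386 CPM in the Bcl6-induced libraries and 2153 to 2319 CPM in the controls. Tdgf1, the one that fell, holds much of that sum, with means of 605 CPM in the Bcl6-induced libraries and 815 CPM in the controls. The log2 fold change was above 0 for 8 of the 10, with a median of 0.36. Their mean log2 level relative to the control mean was 0.38, 0.40, 0.19 and 0.22 in Bcl6-induced libraries 1 to 4. In controls 1 to 4 it was -0.05, -0.11, 0.04 and 0.12. Of the fibroblast markers, 9 of 10 were in the table and none was called, at 584 to 700.4 CPM in the Bcl6-induced libraries and 542 to 695 CPM in the controls. No listed marker in the table was at 0 in all libraries. The summed level of the 46 replication genes was 5770.0 to 6003 CPM in the Bcl6-induced libraries and 6085 to 6931 CPM in the controls, the highest of them in control 1. The part of these markers in the replication values was not tested.

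Levels were compared between genes in CPM per kb of transcript. Mcm7 stood highest over all 8 libraries, at a mean of 141 CPM per kb in the Bcl6-induced libraries and 154 in the controls. Mcm3 followed with 143 in the Bcl6-induced libraries and 151 in the controls, and Pcna with 133 in the Bcl6-induced libraries and 154 in the controls. Below them came Mcm6, Rrm2 and Mcm2. The lowest, apart from Fen1, was Ccne2, with 5.39 CPM per kb in the Bcl6-induced libraries and 6.21 in the controls. The highest mean over all 8 libraries was 25.5 times that of Ccne2, and 118 times that of Fen1, whose value is uncertain. In this order, 41 of the 45 pairs of neighbours had overlapping ranges over the 8 libraries. These ranges do not compare both genes of a pair within each library, so they cannot settle the order of neighbours. The median replication gene lay at the 87.2 percentile of all genes in CPM per kb.

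**Figure D5:**
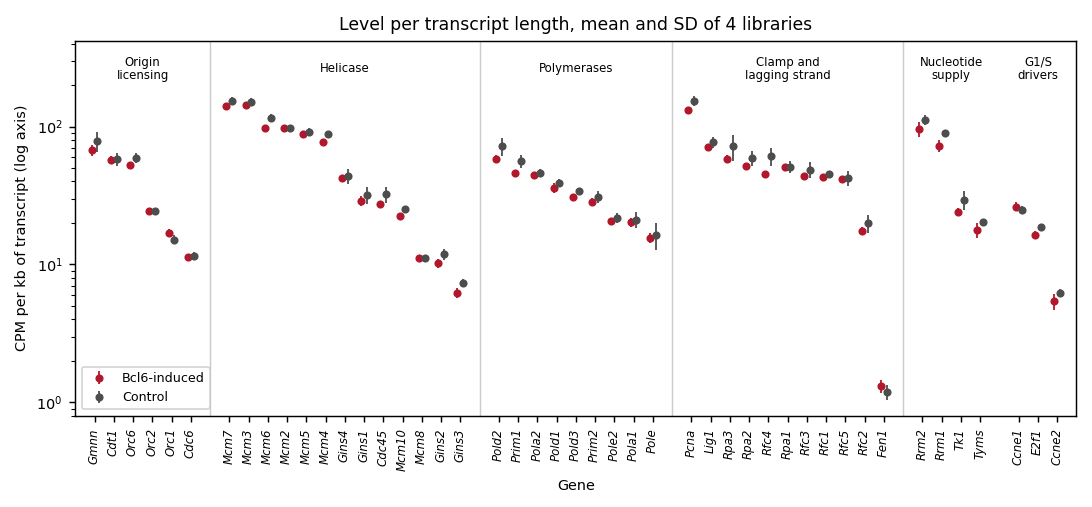
Level of the 46 replication genes in CPM per kb of transcript (log axis), by role and ordered by level within each; points are means and bars SDs of n = 4 libraries, Bcl6-induced red and left, control grey and right. Mcm7, Mcm3 and Pcna stand highest, and Fen1 is lowest.

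Other genes around the replication machinery also lay mostly on the side of lower levels. The log2 fold change was below 0 for 23 of 31 further replication factors and 15 of the 21 further nucleotide metabolism genes in the table. It was below 0 for 21 of 25 further genes of G1/S control. For genes that copy chromatin with the DNA it was 12 of 15, and for genes of G2 and mitosis 19 of 20. Over all genes it was 44.6%, and for the replication genes 40 of 46. Of 31 further replication factors, among them Orc3, Cdc7 and Topbp1, none was called either way, and their median log2 fold change was -0.04. Of 22 further nucleotide metabolism genes, 21 were in the table, with a median of -0.07, and Mthfd1 and Slc29a1 were among those called. Mthfd1, an enzyme of folate metabolism, fell to 344 ± 25.3 CPM in the Bcl6-induced libraries, against 428 ± 30.7 CPM in the controls (SD, n = 4 each; limma, log2 fold change -0.32, adjusted p = 0.0395). Slc29a1, a nucleoside transporter, rose to 90.7 ± 7.81 CPM in the Bcl6-induced libraries, against 57.7 ± 3.96 CPM in the controls (SD, n = 4 each; limma, log2 fold change 0.65, adjusted p = 0.0027). Slc29a1 kept its call in 8 of 8 leave-outs, while Mthfd1 kept its call in 2, and its adjusted p reached 0.115 when control 2 was left out.

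Of 25 further genes of G1/S control, 2 were lower and none higher, with a median of -0.12. Tfdp2, a dimer partner of E2F factors, fell to 176 ± 18.8 CPM in the Bcl6-induced libraries, against 243 ± 26.03 CPM in the controls (SD, n = 4 each; limma, log2 fold change -0.47, adjusted p = 0.0215). Dtl, which targets Cdt1 for destruction in S phase, fell to 129.5 ± 2.16 CPM, against 159.9 ± 11.9 CPM in the controls (SD, n = 4 each; limma, log2 fold change -0.30, adjusted p = 0.0288). Tfdp2 kept its call in 5 of 8 leave-outs and Dtl in 1, with adjusted p of up to 0.0814 for Tfdp2 without Bcl6-induced library 1 and 0.101 for Dtl without Bcl6-induced library 2. None of 15 genes that copy chromatin with the DNA was called, with a median of -0.13. Of 20 genes of G2 and mitosis, Nusap1 and Aurkb were lower, with log2 fold changes of -0.43 and -0.26 (limma, adjusted p = 0.0087 and 0.0498), and the median was -0.13, the same as that of the 46 replication genes. Nusap1, a spindle protein, kept its call in all 8 leave-outs, and Aurkb, a mitotic kinase, in 1. The adjusted p of Aurkb reached 0.173 when Bcl6-induced library 1 was left out.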

How the data were processed

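RNA was measured in 8 libraries made with a stranded TruSeq mRNA kit, per the labels' protocols. STAR 2.5.3a, HTSeq 0.9.1 and edgeR 3.20.1 and the build mm10 are named, with no role or order, per the submitters' processing notes. The deposited values hold a score rather than raw counts, namely reads scaled to 19.93 M to 19.96 M per library and rounded up. Of these values, 99.6% to 99.8% were whole multiples of 1 step per library once rounded up, and the steps gave the read totals. Decimal commas had broken the 14954 lines into extra cells, and each line was rejoined and matched to its own CPM within 0.01. The authors' statistics were not used. One further gene outside the 46 is not reported here.

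Each gene was tested with limma 3.58.1 (R 4.3.3) on log2(value + 1), Bcl6-induced minus control, with a variance trend and no covariate. P-values were adjusted over all 14954 genes by the Benjamini-Hochberg method, and the threshold was an adjusted p of 0.05. Fold changes on this scale understate those of low genes. The script was tested on simulated data. Transcript length and GC came from GENCODE M21 (longest coding transcript), and promoters from RefSeq. Depth was 9.42 M to 15.02 M reads per library. The replication genes and all lists were chosen with earlier results of these data known. Values of every library are given for called replication genes and, in each role, for the gene with the smallest p, the highest level per length and the largest difference. Orc1, Mcm2 and Pole were added after their values were seen. The alternatives were other pseudocounts, filters, scalings, variance models, a length and GC correction, a replicate block and leaving out each library. Count models were not run, since the deposited values are not raw counts.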

Additional observations from a re-analysis of the deposited data

Results flagged for a closer look

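Each group of 4 libraries was screened for a library far from the other 3, for the 46 replication genes and Bcl6. Of 94 groups, 3 had such a library, where chance alone gives about 1 in 20, or 4.7. Control 1 was high for Pold2, at 144.3 CPM with the other controls at 106.8 to 111.5 CPM, and for Rpa2, at 128.1 CPM with the others at 100.4 to 101.8 CPM. Control 4 was high for Fen1, at 3.358 CPM with the others at 2.609 to 2.655 CPM, a gene with 25 to 53 reads per library.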

How the results depend on the processing

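No replication gene was called higher in any of the 19 other settings. Where the count of replication genes called lower was 2 as reported, it was 4 with median-of-ratios scaling, 5 with upper quartile scaling, 4 with TMM scaling, 0 without the variance trend, 7 with array weights, 9 after the length and GC correction, and 0 to 4 when 1 library was left out. Over all genes, 338 were called lower as reported, 225 without the variance trend, 864 with array weights, 904 after the length and GC correction and 93 to 551 in leave-outs. The genes called higher numbered 681 as reported, 1643 with array weights and 211 to 1146 in leave-outs. The split of higher against lower genes was 681 and 338 as reported, 536 and 424 with median-of-ratios scaling, 501 and 474 with upper quartile scaling, 556 and 412 with TMM scaling, and 904 and 904 after the length and GC correction. The median of the 46 genes was -0.19 to -0.12 in settings with all libraries and -0.16 to -0.10 in leave-outs, and Bcl6 kept its call in all. The cause of these shifts was not tested.

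The labels do not say whether same-numbered libraries were paired. The deviations of same-numbered libraries correlated at 0.03, 0.01, -0.03 and 0.37 over 11869 genes. With 4 libraries a group, these values cannot settle whether the numbers pair the libraries. With the replicate block, 1 replication gene was called lower, Rfc4, where 1.98% of all genes were. With the block and the length and GC correction together, 8 were, where 939 of all genes were. They were Gins2, Mcm6, Mcm10, Pold1, Pold2, Rfc4, Rrm1 and Tk1. edgeR and DESeq2 on recovered reads were planned and not run, since the values are not raw counts. Fen1 had the fewest reads, and its exon overlap with Gm10143 also leaves its value uncertain. With 4 libraries a group, log2 differences under about 0.31 were left unresolved for the median replication gene.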
